A study of Mus musculus with 27 samples.

Results

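The soluble nucleoplasm and the cytoplasm of mouse neural progenitor cells (mNPC) were compared gene by gene in 6 of the 27 RNA libraries of a study of RNA maturation during neuronal differentiation. The 6 were chosen by their labels: 3 nucleoplasmic and 3 cytoplasmic libraries from biological triplicates of mNPC. The mNPC were a line established in the submitters' laboratory, grown in DMEM/F12 with B27 lacking vitamin A and given EGF and FGF daily at 10 ng/ml. The same fractions of E14 mouse embryonic stem cells (mESC, grown with LIF) and of primary cortical neurons (mCtx, 5 days in culture), and the chromatin fraction of each cell type, supplied the other libraries and are used here only as a reference. No group carried a genetic change or drug treatment in the labels. Since the progenitors were a single line, libraries of a fraction differ as cultures or preparations of that line. The spread behind the edgeR p-values was estimated over all 27 libraries, the other cell types and chromatin included.

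RNA longer than 200 nt was depleted of ribosomal RNA and sequenced without selecting poly(A) tails. The deposited counts covered whole gene spans, introns included, and were scaled here to CPM, counts relative to the size of the library, after the mitochondrial genes had been set apart. Total counts were 13327489, 15718994 and 14704925 in the nucleoplasmic libraries and 17723484, 18072292 and 13766242 in the cytoplasmic ones, and all 27 libraries held between 11249862 and 19871198. All levels are relative within a library, because the amount of RNA per cell in each fraction was not measured. A log2 ratio above 0 means a higher scaled level in nucleoplasm than in cytoplasm. Close to 0, it can go with an equal or smaller plain share of the counts. In bulk samples, fewer cells of a type and less RNA per cell cannot be told apart.

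A cell makes its proteins on ribosomes that either float free in the cytosol or sit on the endoplasmic reticulum (ER). Messages for secreted, lysosomal and membrane proteins are carried to the ER when a hydrophobic signal sequence or membrane-spanning stretch leaves the ribosome and is bound by the signal recognition particle. The rough ER is continuous with the outer membrane of the nucleus. Small tail-anchored proteins differ in that their hydrophobic stretch lies at the very end, so that it leaves the ribosome only when translation is over. Nuclear RNA, for its part, holds unfinished transcripts, retained noncoding RNAs such as Malat1, and small nucleolar RNAs (snoRNAs) that are cut from introns.

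In the genetic code, codons with T in the middle encode phenylalanine, leucine, isoleucine, methionine and valine, all of them hydrophobic. This allows a hydrophobic stretch to be seen in the coding sequence itself. The first 29 codons are printed for 4 genes whose RNA was several-fold higher in nucleoplasm and 3 whose RNA was lower, with every codon that has T in the middle in capitals (GENCODE vM21 transcripts, GRCm38, 5′ to 3′). Hspa5 (chromosome 2, 34771970 to 34776531, plus strand) and Calr (chromosome 8, 84841850 to 84846934, minus strand) encode chaperones of the ER lumen. Tnc (chromosome 4, 63959785 to 64047015, minus strand) encodes the matrix protein tenascin C, and Lrp1 (chromosome 10, 127538161 to 127621148, minus strand) encodes an endocytic receptor.
Hspa5: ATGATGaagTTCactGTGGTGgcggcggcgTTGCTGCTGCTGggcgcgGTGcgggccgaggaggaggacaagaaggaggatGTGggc
Calr: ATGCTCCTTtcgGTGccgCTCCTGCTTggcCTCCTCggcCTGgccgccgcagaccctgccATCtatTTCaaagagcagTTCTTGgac
Tnc: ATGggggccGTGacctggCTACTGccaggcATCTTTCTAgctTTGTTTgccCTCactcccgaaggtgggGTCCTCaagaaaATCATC
Lrp1: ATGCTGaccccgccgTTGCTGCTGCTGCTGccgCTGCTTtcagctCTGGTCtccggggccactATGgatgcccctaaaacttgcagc
The comparison set consists of Rpl35 (chromosome 2, 39001580 to 39005624, minus strand), a ribosomal protein, Hist1h4c (chromosome 13, 23698060 to 23698454, minus strand), a histone H4, and Actb (chromosome 5, 142903115 to 142906754, minus strand), cytoplasmic actin.
Rpl35: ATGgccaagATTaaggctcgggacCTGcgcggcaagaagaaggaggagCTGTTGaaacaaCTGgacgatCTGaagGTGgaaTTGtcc
Hist1h4c: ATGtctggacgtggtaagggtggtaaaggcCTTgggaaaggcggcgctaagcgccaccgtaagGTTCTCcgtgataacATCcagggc
Actb: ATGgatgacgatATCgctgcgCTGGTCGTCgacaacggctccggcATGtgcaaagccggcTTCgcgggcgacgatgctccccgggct
In the densest run of 12 codons between codons 2 and 29, Lrp1 had 9 with T in the middle, Tnc and Calr 8 each and Hspa5 7. Rpl35 had 6, Actb 5 and Hist1h4c 3. A count of 8 or more was found in 7.89% of 12079 protein-coding genes and a count of 7 or more in 15.1%, whereas 49.8% reached 5.

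Membrane proteins carry such stretches further along, and the densest run of 20 codons is printed for 4 of them. Cspg4 (chromosome 9, 56865104 to 56899870, plus strand) encodes the NG2 proteoglycan, Egfr (chromosome 11, 16752203 to 16918158, plus strand) the receptor for the EGF in the medium, and Slc1a3 (chromosome 15, 8634124 to 8710764, minus strand) a glutamate transporter. Sec61b (chromosome 4, 47474658 to 47483242, plus strand) encodes a tail-anchored subunit of the ER protein channel.
Cspg4: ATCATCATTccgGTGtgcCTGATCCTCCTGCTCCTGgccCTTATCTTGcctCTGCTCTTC
Egfr: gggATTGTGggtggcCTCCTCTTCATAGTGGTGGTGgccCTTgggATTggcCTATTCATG
Slc1a3: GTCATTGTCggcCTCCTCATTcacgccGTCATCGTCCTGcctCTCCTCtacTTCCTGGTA
Sec61b: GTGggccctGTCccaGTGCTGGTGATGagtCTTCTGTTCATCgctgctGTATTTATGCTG
The run spanned codons 2230 to 2249 of 2327 in Cspg4 with 16 T-middle codons, 651 to 670 of 1210 in Egfr with 14, 321 to 340 of 543 in Slc1a3 with 15, and 68 to 87 of 96 in Sec61b with 14. Only 15.3% of the genes had a run with 13 or more. A dense run is a description of the letters and was not matched to known protein domains.

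The labelled cell type was checked against marker genes. All 15 progenitor markers reached 1 CPM, and their summed level was 10307 to 11198 CPM in nucleoplasm and 7225 to 8343 CPM in cytoplasm. None of 6 stem cell markers reached 1 CPM, and Pou5f1, Zfp42 and Dppa5a had no count in any of the 6 libraries. Of the markers of other neural cells, 6 of 7 neuronal, 4 of 4 astrocytic and 5 of 5 oligodendrocyte-lineage genes reached 1 CPM. The neuronal sum was 635 to 794 CPM in nucleoplasm and 643 to 770 CPM in cytoplasm, and the astrocytic sum 185 to 303 CPM and 155 to 234 CPM. The oligodendrocyte-lineage sum was 1885 to 2376 CPM in nucleoplasm and 116 to 158 CPM in cytoplasm, and it included the membrane proteins Cspg4 and Pdgfra. Of the microglial and endothelial markers 1 of 4 and 1 of 3 reached 1 CPM, and Csf1r, Aif1 and Cldn5 had no count. The part of such cells in the differences between fractions was not tested.

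RNA of the mitochondrial genome was many-fold higher in nucleoplasm. The 37 genes of the mitochondrial genome held 15.7%, 7.81% and 9.67% of all counts in the nucleoplasmic libraries against 0.157%, 0.126% and 0.209% in the cytoplasmic ones, and 0.201% ± 0.0530 (SD, n = 3) in chromatin. The groups did not overlap, and the exact two-sided permutation test gave p = 0.1, the smallest p that 3 against 3 libraries allow. The 12S ribosomal RNA mt-Rnr1 stood at 7732, 3538 and 5246 CPM in nucleoplasm and at 21.8, 17.1 and 39.7 CPM in cytoplasm, a log2 ratio of 7.72 ± 0.68 (SE; edgeR quasi-likelihood test, adjusted p = 3.99e-10). The protein-coding mt-Co1 had a log2 ratio of 5.77 and mt-Cytb of 6.36. Replicate 1 was the highest nucleoplasmic library in each of these. In mESC the mitochondrial share was 29.1% in nucleoplasm and 0.288% in cytoplasm, and in mCtx it was 2.13% in nucleoplasm and 1.19% in cytoplasm. The higher nucleoplasmic share of mESC lay in mitochondrial ribosomal RNA, which held 27.2% there and 5.33% in mNPC nucleoplasm. Mitochondrial protein-coding genes went the other way, with 1.85% for mESC nucleoplasm and 5.72% for that of mNPC. In the TPM values described below, these protein-coding shares were close, at 3.42% and 3.44%. The part of co-purified mitochondria or of membranes in the other differences between the fractions was not tested.

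Another 3 mitochondrial messages were nearly absent from the count table but abundant in the deposited table of TPM, an abundance corrected for transcript length. mt-Co2 had 2.61, 1.79 and 2.05 CPM in nucleoplasm and no count in cytoplasm, which is at least 11.8-fold higher against a floor of 3 counts per library. Its nucleoplasmic TPM values were 5053, 618 and 2760, against 49.5, 80.2 and 45.2 for cytoplasm. Both tables gave the same direction. mt-Atp6 and mt-Co3 had log2 ratios of 5.62 and 5.85 from counts that averaged 1.39 and 3.91 CPM in nucleoplasm.

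**Figure D1:**
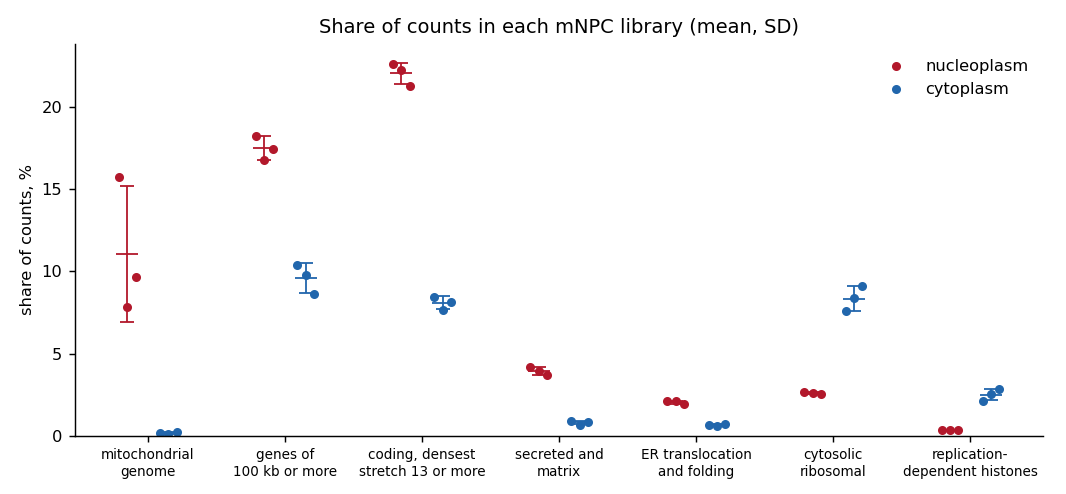
Share of counts (%, linear axis) taken by the mitochondrial genome (of all counts) and by 6 classes of nuclear-encoded genes (of the non-mitochondrial counts) in each mNPC library. Points are libraries and bars give mean and SD (n = 3 per fraction): the mitochondrial share reached 15.7% in nucleoplasm, and genes with a dense run of 13 or more T-middle codons took 22.0% of nucleoplasmic and 8.08% of cytoplasmic counts.

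Of 18281 genes tested, 4393 were higher in nucleoplasm (24.0%) and 4559 lower (24.9%) at an adjusted p under 0.05 in edgeR. The deposited TPM served as a check, with each library first set to the same total over the tested non-mitochondrial genes. These values, called unscaled TPM here, gave 1876 higher (11.5%) and 6313 lower (38.7%) of 16292 genes. After a further rescaling by the median ratio they gave 3741 (23.0%) and 4049 (24.9%). Under total-count scaling the split was 3778 to 5456. The median log2 ratio over genes at 1 CPM or more was −0.08 and moved by −0.15 under total-count scaling and by −0.55 with unscaled TPM, so directions below are relative to the scaling. Counts and rescaled TPM made the same call for 6923 genes and opposite calls for 35. Large differences were mostly on the nucleoplasmic side: 1353 genes were called with a 4-fold or larger difference as higher and 160 as lower.

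The 8 coding genes with the largest ratios, by the rule for named genes, were led by matrix and cell surface proteins. Fn1, the matrix protein fibronectin, stood at 75.0, 71.6 and 61.8 CPM in nucleoplasm and 2.54, 2.09 and 2.27 CPM in cytoplasm (log2 ratio 4.91 ± 0.20, edgeR adjusted p = 3.65e-16). Cspg4 stood at 972, 1475 and 1282 CPM against 45.0, 39.0 and 42.9 CPM (4.88 ± 0.25, adjusted p = 1.1e-14). In both, the libraries of a fraction lay close together and the fractions far apart. Fat4 and Dchs1, a pair of giant cadherins that bind each other across cell contacts, averaged 517 and 838 CPM in nucleoplasm and 19.0 and 31.5 CPM in cytoplasm (log2 ratios 4.76 and 4.73). Tnc stood at 2063, 2355 and 2262 CPM against 99.6, 78.2 and 93.0 CPM (4.62 ± 0.21), and Lrp1 at 873, 995 and 833 CPM against 43.7, 34.1 and 32.9 CPM (4.61 ± 0.22). The other 2 were the fibrillar collagen gene Col11a1 (4.44) and the protocadherin Pcdhb16 (4.45), whose close relatives in the same cluster could share reads with it. All 8 encode proteins known to enter the secretory pathway. A lack of overlap between the fractions was part of the rule.

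The secreted and matrix protein list had 34 of 36 tested members higher and 0 lower, with a median log2 ratio of 3.09. The background was 24.0% higher over all genes tested. Of the other 2, Cst3 (cystatin C), abundant in both fractions at 1441 and 1214 CPM, had a ratio of 0.25, and Mdk was under 1 CPM in both. Sparc, a collagen-binding matrix protein, was higher with 1.91. The list's share of non-mitochondrial counts was 3.93% ± 0.243 (SD, n = 3) in nucleoplasm and 0.806% ± 0.111 in cytoplasm, without overlap (exact two-sided permutation p = 0.1).

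Plasma membrane receptors and transporters were higher in nucleoplasm in 46 of 48 cases and lower in 0, with a median of 2.81. Ptprz1, a receptor phosphatase of radial glia, stood at 7613, 6406 and 5982 CPM against 339, 294 and 296 CPM (4.43 ± 0.19). Egfr stood at 2881, 2846 and 2539 CPM against 332, 305 and 317 CPM (3.12 ± 0.26, edgeR adjusted p = 9.98e-11), with no overlap between the fractions. The integrin subunits Itga6 and Itgb1 had 3.25 and 3.16, the amyloid precursor App 3.18, Notch1 3.03 and the transporter Slc1a3 2.40. Fgfr2 was an exception within its own family: Fgfr1 had 2.09 and Fgfr3 2.20, whereas Fgfr2 had −0.12 (adjusted p = 0.506) at 606 and 659 CPM. Cd63, a tetraspanin of late endosomes, had 0.68 and missed the threshold (adjusted p = 0.0530).

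Lysosomal and Golgi proteins were higher in 28 of 30 cases, with a median of 1.99 and none lower. Glg1, a Golgi glycoprotein, averaged 932 CPM in nucleoplasm and 64.9 CPM in cytoplasm (3.84), Gaa, the acid glucosidase of lysosomes, had 3.67, and the protease Ctsd had 2.38. Cd63 and Npc2 did not pass. A list of long adhesion and synaptic genes had 31 of 45 higher and 0 lower (median 1.90 from counts, 0.72 from rescaled TPM), among them the receptor phosphatase Ptprd (3.84). Of the 45, 41 were lower in nucleoplasm than in chromatin, where 33.3% of all genes tested were lower and 32.5% higher.

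Genes of the ER's own machinery fell on both sides. Of 52 tested members 38 were higher and 5 lower, with a median of 1.43. Hspa5, the ER chaperone BiP, stood at 1399, 1340 and 1157 CPM against 147, 125 and 173 CPM (3.13 ± 0.20, edgeR adjusted p = 5.5e-13). Ganab, the glucosidase that trims newly attached glycans, averaged 1389 and 111 CPM (3.65), Uggt1, which marks misfolded glycoproteins, had 3.62, the lectin chaperone Canx 2.36 and Calr 1.81. The 5 that were lower were Sec61b, Sec61g, Ssr4, Ostc and Tmed2, small subunits of the channel and of complexes beside it and a cargo receptor. Sec61b stood at 57.0, 56.8 and 47.4 CPM in nucleoplasm and at 89.2, 103 and 117 CPM in cytoplasm (−0.94 ± 0.20, adjusted p = 0.000248), and Ssr4 had −0.60. Without nucleoplasmic replicate 3, the lower calls numbered 3.

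Genes of the targeting machinery also fell on both sides. Of 18 members 6 were higher and 8 lower (median −0.30). Emc1, the large lumenal subunit of the ER membrane insertion complex, had 3.54, and Srpr, the membrane receptor for the signal recognition particle, had 1.06. Emc1 lies over 99.9% of its span within Ubr4 (2.39) on the same strand, so it may share counts with that gene. Srp9 and Srp72, protein subunits of the particle itself, which is soluble, had −1.42 and −0.90. In the list of EGF and FGF response regulators 7 of 31 were higher and 9 lower, near the backgrounds of 24.0% and 24.9%. The membrane regulator Il17rd had 2.50, and the cytosolic signalling proteins Hras, Map2k2 and Mapk3 had −1.34, −1.11 and −1.12. Hras RNA was 15.7, 23.5 and 25.0 CPM in nucleoplasm against 46.3, 55.0 and 61.9 CPM in cytoplasm.

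**Figure D2:**
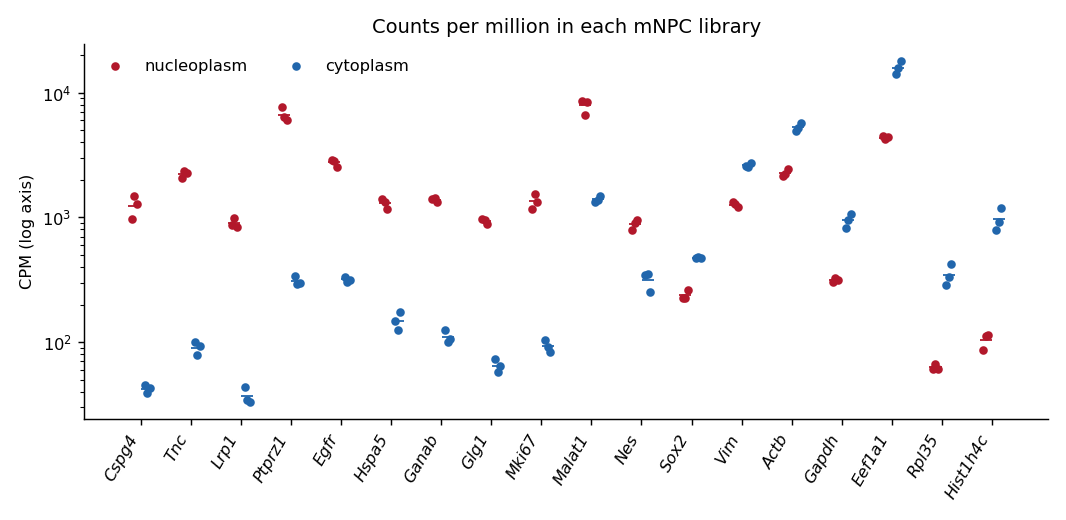
CPM (log axis) of 18 genes in the 3 nucleoplasmic and 3 cytoplasmic mNPC libraries, each point a library and each short line a mean. Genes of secreted, membrane and ER proteins from Cspg4 to Glg1 were higher in all 3 nucleoplasmic libraries, and Sox2, Vim, Actb, Gapdh, Eef1a1, Rpl35 and Hist1h4c were lower in all 3.

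**Figure D3:**
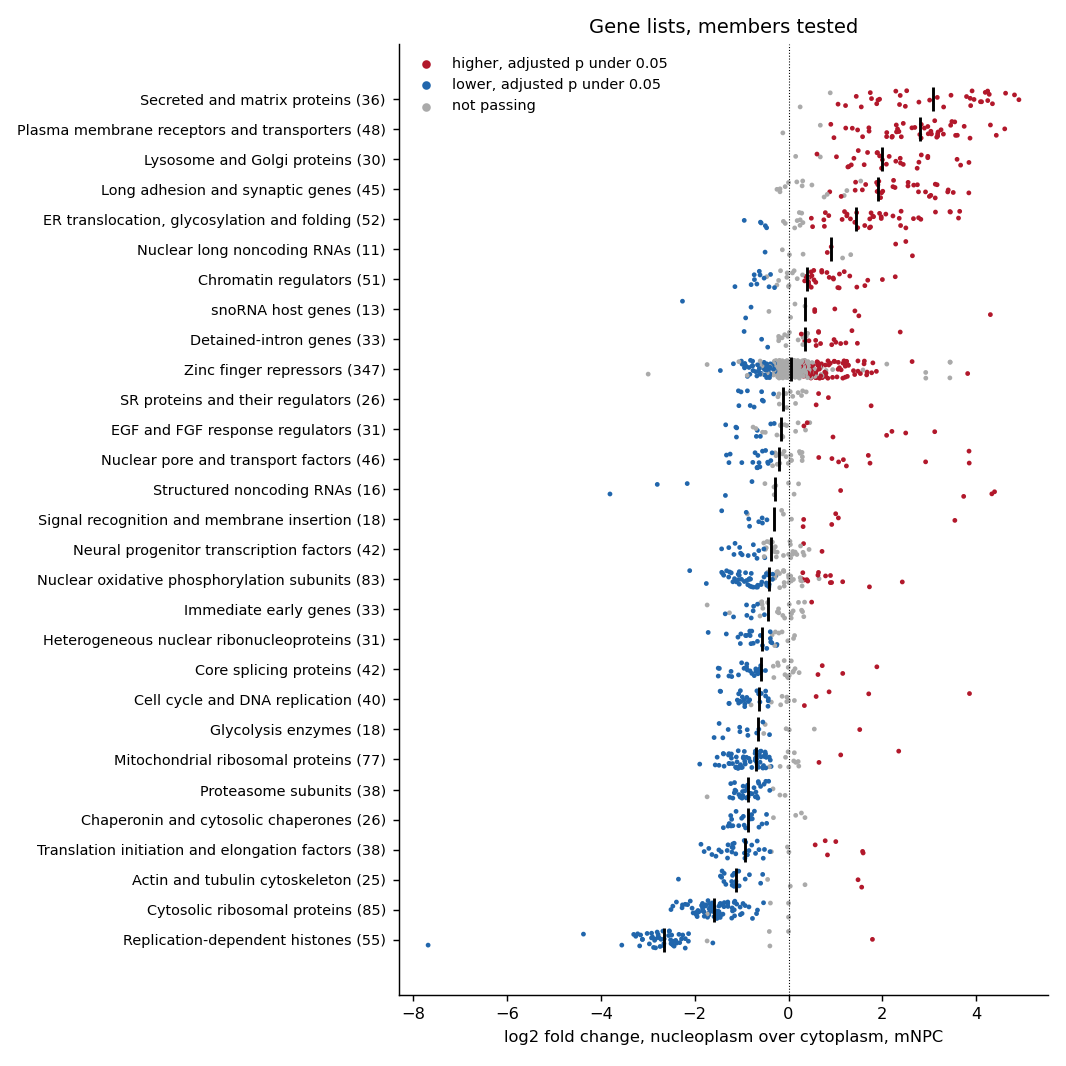
Log2 ratio of nucleoplasm over cytoplasm for each tested member of 29 gene lists (number of members in parentheses), coloured by call, with the list's median as a black bar. The secreted list had the highest median, 3.09, and the replication-dependent histones the lowest, −2.66, and the histone furthest to the left was fitted against a nucleoplasmic level of 0.

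The ratio went with the density of T-middle codons across the coding genes as a whole. Among 12079 coding genes at 1 CPM or more, the 1623 whose densest 20-codon run held 8 or fewer had a median log2 ratio of −0.54, and 9.49% of them were higher and 56.1% lower. The 1120 genes with 14 or more had a median of 1.43, with 77.9% higher and 5.00% lower. Between these ends the medians were −0.39, −0.25, −0.03, 0.33 and 1.04 for 9, 10, 11, 12 and 13. Spearman's rho across genes was 0.476 (n = 12079), and genes of a library share its depth and composition. These classes were set after the list values had been seen and are descriptions.

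The class medians also went with the density of the start window and the number of dense runs. A start window of 9 or more T-middle codons gave a median of 1.61 (422 genes, 79.6% higher), and 3 or fewer gave −0.20 (23.0% higher). The 1336 genes with a dense run but no such start (under 8) had a median of 1.18, the 444 with the start only 1.39, the 509 with both 1.59 and the 9790 with neither −0.26. By the number of separate dense runs, 1 gave a median of 1.12, 2 to 4 gave 1.41, and 5 or more, as in proteins that cross the membrane many times, gave 1.89 with 70 of 72 genes higher.

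Genes whose only dense run ended within 30 codons of the stop had a lower median than those with it elsewhere. Their median was 0.28 (168 genes, 42.9% higher and 28.0% lower), against 1.17 for a run in the first 30 codons (199 genes) and 1.26 for one elsewhere (857 genes). Of the 168, the 55 that also had 7 or more T-middle codons in the start window had a median of 1.59 with 74.5% higher, and the 113 with 6 or fewer had −0.19 with 27.4% higher and 39.8% lower. The 55 include 9 genes of the Ugt1a locus, which share their last exons and so are 1 locus rather than 9 separate genes. Without them, a choice made after seeing the data, the 168 become 159 with a median of 0.21 (39.6% higher) and the 55 become 46 with a median of 1.29 (69.6% higher). The lower ones included several tail-anchored SNAREs, the proteins that fuse vesicles with their targets. Use1 averaged 25.0 CPM in nucleoplasm and 104 CPM in cytoplasm (−2.06), Vamp3 79.2 and 233 CPM (−1.56), Gosr2 64.8 and 137 CPM (−1.07), and Vti1b, Vamp4, Stx8, Vti1a, Sec22b and Stx18 lay between −1.03 and −0.88. The syntaxins Stx4a, Stx7 and Stx12 were also lower (−0.93, −0.86 and −0.79). Stx16, Stx3, Vamp8 and Vamp5 of the class were not called lower. Stx16 was higher (0.37, edgeR adjusted p = 0.00302), while Stx3 had 0.29 (adjusted p = 0.295), Vamp8 0.23 (adjusted p = 0.669) and Vamp5 −0.85 (adjusted p = 0.0886). Bak1, a death effector anchored by its tail in the mitochondrial outer membrane, had −1.29 and Vapb, an ER tether, −1.05. The higher ones included proteins with a signal sequence and a single span near the end: Ncstn, a subunit of the secretase that cleaves Notch (3.05), the membrane protease Mmp14 (3.04), the lysosomal Scarb2 (2.83) and the cargo receptor Lman1 (2.30). These genes were named after their values were seen. Use1, Vamp3, Gosr2, Bak1 and Vapb have 284, 103, 212, 209 and 243 codons. Ncstn, Mmp14, Scarb2 and Lman1 are longer, with 708, 582, 478 and 517. Coding length, taken up below, was not held fixed in these classes, so its part in their medians was not tested.

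**Figure D4:**
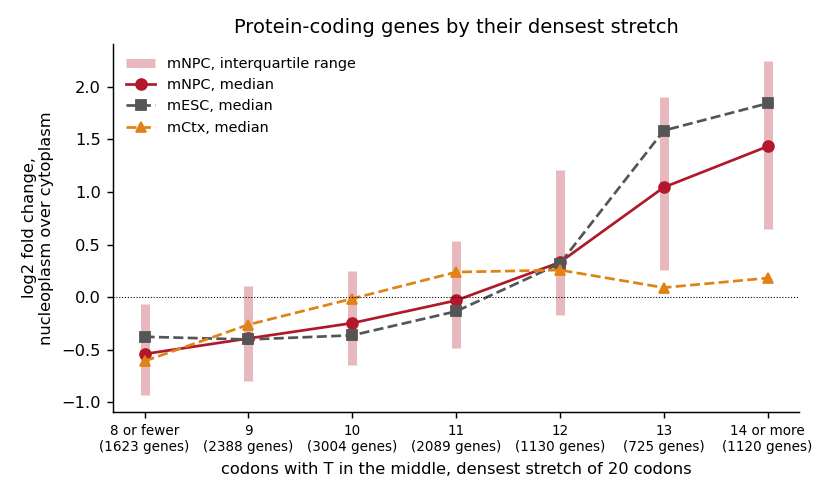
Median log2 ratio of nucleoplasm over cytoplasm for coding genes grouped by the number of T-middle codons in their densest run of 20, in mNPC, mESC and mCtx, with the interquartile range of the mNPC genes as bars. The mNPC median went from −0.54 to 1.43, the mESC median ended higher at 1.84 and the mCtx median at 0.18.

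Coding length had its own relation with the ratio. Among genes with a sparse densest run (10 or fewer), 1149 genes under 200 codons had a median of −0.86 with 77.0% lower, and the medians were −0.55, −0.11 and 0.34 for the classes that begin at 200, 500 and 1000 codons. The 105 sparse genes with 2000 codons or more had a median of 1.08, and 83.8% of them were higher. Among dense genes (13 or more) the medians were −0.12, 0.87, 1.77, 2.33 and 1.85 over the same classes, above the sparse genes at every length. Gene span, which includes introns, showed a weaker gradient, from −0.51 under 10 kb to 0.73 at 300 kb or more (0.32 from rescaled TPM). Genes of 100 kb or more took 17.5% ± 0.725 of the non-mitochondrial counts in nucleoplasm and 9.59% ± 0.890 in cytoplasm (SD, n = 3, exact two-sided permutation p = 0.1). As shares of TPM the fractions overlapped, with 0.813% and 0.660% (exact p = 0.4).

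Values for several long soluble or nuclear proteins, beside shorter ones of the same lists, were as follows. Mki67, the protein that coats mitotic chromosomes, stood at 1170, 1531 and 1338 CPM in nucleoplasm and 103, 92.2 and 83.4 CPM in cytoplasm (log2 ratio 3.86 ± 0.17, edgeR adjusted p = 1.22e-15). Cenpf had 1.71, while the small replication factor Gins2 and the cyclin Ccnd1 had −1.46 and −1.45. In the splicing list, the giant U5 proteins Prpf8 (1.88) and Snrnp200 (1.16) were higher while the small Sm-type proteins Snrpg and Lsm6 had −1.50 each. Srrm2 (1.76) and Son (0.85), scaffolds of nuclear speckles, were higher while Srsf1 (−1.07) and Srsf9 (−1.06) were lower. The translation factor scaffold Eif4g1 had 1.59 and the elongation factor Eef1a1 −1.87. Chd4 and Atrx, chromatin remodelling ATPases, had 2.00 and 2.27, and Rbbp4 and Smarcb1, smaller chromatin proteins, had −1.14 and −0.80.

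**Figure D5:**
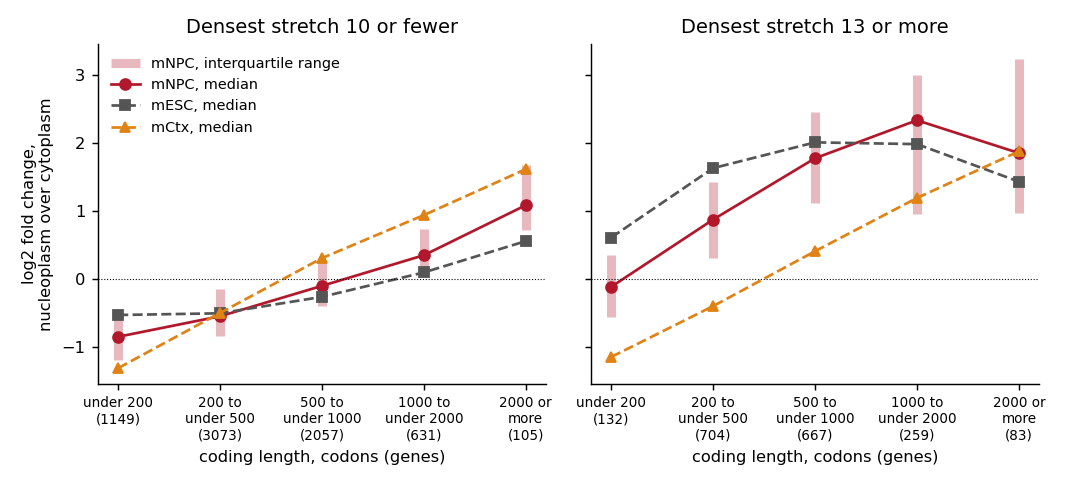
Median log2 ratio of nucleoplasm over cytoplasm by coding length for genes with a sparse (left) or dense (right) densest run, in mNPC, mESC and mCtx, with the interquartile range of the mNPC genes as bars. In mNPC the sparse genes went from −0.86 under 200 codons to 1.08 at 2000 or more.

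Messages of the cytosolic ribosome lay on the cytoplasmic side. Of 85 tested ribosomal protein genes 0 were higher and 81 lower (background 24.9% lower), with a median of −1.59, and 2 had no count in any of the 6 libraries. Rpl35 stood at 61.3, 67.3 and 60.6 CPM in nucleoplasm and 290, 333 and 423 CPM in cytoplasm (−2.46 ± 0.13, edgeR adjusted p = 1.48e-14), with no overlap. Rpl12 had −2.51 from counts and −1.16 from rescaled TPM. Reads of ribosomal protein genes can be shared with their processed pseudogenes. Together the list took 2.61% ± 0.062 of the nucleoplasmic and 8.33% ± 0.763 of the cytoplasmic counts.

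Replication-dependent histones, whose short intronless messages lack poly(A) tails, were further to the cytoplasmic side, with 50 of 55 lower, 1 higher and a median of −2.66. The 8 coding genes with the lowest ratios among all genes at 10 CPM or more were H4 histones, from Hist1h4j (−3.30) to Hist1h4h (−3.11). Hist1h4j stood at 44.2, 62.4 and 60.5 CPM against 427, 553 and 667 CPM. The H4 copies are nearly identical, so the values of single copies are uncertain. The list's share of counts was 0.350% ± 0.0239 in nucleoplasm and 2.50% ± 0.355 in cytoplasm. The exception was Hist2h3c2, with 1.79.

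Other soluble machines followed the same side. The proteasome had 34 of 38 members lower and 0 higher (median −0.87), and the chaperonin and cytosolic chaperones 22 of 26 lower and 0 higher (−0.87). Psmb6, a catalytic subunit, had −1.23 and Tcp1, a chaperonin subunit, −1.29. Translation factors had 29 of 38 lower and 6 higher (−0.92). Actin and tubulin genes had 20 of 25 lower (−1.12), among them Actb at 2134, 2240 and 2446 CPM against 4899, 5198 and 5691 CPM (−1.21) and Tmsb10, which binds actin monomers (−2.35), whereas the long Map1b was higher (1.56). Glycolytic enzymes had 12 of 18 lower (−0.66), with Gapdh at −1.59 and Aldoa at −1.48, and Hk1, the hexokinase bound to mitochondria, was the 1 higher member (1.52). Cell cycle and replication genes had 27 of 40 lower and 5 higher (−0.64).

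Nuclear-encoded mitochondrial proteins were mixed. Mitochondrial ribosomal proteins had 64 of 77 lower and 3 higher (median −0.70), with Mrpl12 at −1.89. Oxidative phosphorylation subunits had 45 of 83 lower and 14 higher (−0.42). Cox6a1, a small subunit of cytochrome oxidase, averaged 820 CPM in nucleoplasm and 153 CPM in cytoplasm (2.42), and Sdha, the flavoprotein of complex II, had 1.72, while the small subunit Atp5e had −2.11. The part of co-purified mitochondria in these ratios was not tested.

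RNA-binding proteins of the nucleus were on the cytoplasmic side as messages. Of 31 heterogeneous nuclear ribonucleoproteins 23 were lower and 0 higher (median −0.55), led by Hnrnpa1 (−1.71), and of 42 core splicing proteins 23 were lower and 4 higher (−0.59). SR proteins and their regulators had 10 of 26 lower and 4 higher, with a median of −0.13 near the −0.08 of all genes at that level. Genes listed for detained introns, introns that stay in otherwise spliced nuclear RNA, had 16 of 33 higher and 3 lower (median 0.35, and −0.29 with unscaled TPM). Gabbr1, a GABA receptor subunit that is also a membrane protein, had 1.47, and the kinase Clk2 had −0.57. Chromatin regulators had 27 of 51 higher and 11 lower (0.40, and −0.17 with unscaled TPM). In the nuclear pore and transport list 10 of 46 were higher and 18 lower (−0.21). Nup210, the pore protein that spans the nuclear membrane, had 3.85, while Ran and Alyref, soluble transport and export factors, had −1.27 and −1.32.

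Transcription factors stayed near the middle of the distribution. Of 42 progenitor factors 2 were higher and 14 lower (median −0.36), and 9 were lower without nucleoplasmic replicate 2. Sox2 averaged 239 CPM in nucleoplasm and 475 CPM in cytoplasm (−0.99), Id3 and Id1 had −1.43 and −1.27, and Pou3f3 had 0.71. Sox2 and Pou3f3 lie wholly within longer genes on the same strand (−0.82 and 0.73) and may share counts with them. Rest, the repressor of neuronal genes, had 0.32 (edgeR adjusted p = 0.0236) and missed the threshold without any 1 of 4 libraries (0.23 to 0.32). Immediate early genes had 9 of 33 lower, near the background of 24.9%, and 1 higher, with Jund and Ier5 at −0.89 each. Their lower calls numbered 4 without nucleoplasmic replicate 1 and 5 without cytoplasmic replicate 3. Zinc finger repressors had 80 of 347 higher and 49 lower with a median of 0.04, against a background of 24.0% higher and 24.9% lower. The progenitor filaments Vim (−1.05) and Nes (1.48) went opposite ways in counts. Nes stood at 786, 903 and 956 CPM against 342, 351 and 254 CPM, but had 0.01 from rescaled TPM and −0.64 from unscaled TPM. The splicing repressor Ptbp1 was lower (−0.80), and its neural relative Ptbp2 had 0.11 (adjusted p = 0.595).

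Noncoding RNAs took both sides. Malat1, which resides in nuclear speckles, stood at 8652, 6583 and 8452 CPM in nucleoplasm and 1325, 1386 and 1479 CPM in cytoplasm (2.50 ± 0.28, edgeR adjusted p = 2.22e-08), and its log2 ratio of nucleoplasm over chromatin was −1.52. Neat1, the scaffold of paraspeckles, had 2.28 at low levels of 8.32 and 1.66 CPM, and Firre had 0.91. Xist was 142, 125 and 114 CPM against 56.6, 59.8 and 54.9 CPM, without overlap, yet missed the threshold (1.15 ± 0.57, adjusted p = 0.103). An edgeR fit of only the 6 libraries, which takes its spread from those libraries alone, gave adjusted p = 4.61e-08. Of 11 nuclear long noncoding RNAs tested, 5 were higher and 1 lower (median 0.91, 0.05 from rescaled TPM and −0.0039 from unscaled TPM), and 13 further names could not be matched. Among the small structured RNAs, Rpph1, the RNA of ribonuclease P, averaged 4017 and 27920 CPM (−2.80), the vault RNA Vaultrc5 had −3.81, and Rn7sk (−0.50, adjusted p = 0.114) and Rmrp (0.12, adjusted p = 0.779) missed the threshold. Without nucleoplasmic replicate 2, Rn7sk had −0.80 and passed it (adjusted p = 0.0194). The protocol selected for RNA over 200 nt, so the shortest of these RNAs were recovered in part at most.

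The largest ratios of any non-mitochondrial gene at 10 CPM or more among noncoding RNAs belonged to snoRNAs. Snora23 averaged 284 CPM in nucleoplasm and 6.68 CPM in cytoplasm (5.41 ± 0.29), and Gm24119 (5.01), Snora81 (4.75) and Snora73a (4.39) followed. All 4 lie within the span of a longer gene on the same strand: Snora23 in the importin gene Ipo7 (1.07), Gm24119 in Slc25a3 (1.02), Snora81 in Eif4a2 and Snora73a in Snhg3 and Rcc1. Across 119 snoRNA genes at 1 CPM or more the median was 0.92, with 58.0% higher and 1.68% lower, against 29.8% and 33.9% of all non-mitochondrial genes at that level. Of 13 snoRNA host genes 6 were higher and 3 lower (median 0.35, −0.23 from rescaled TPM and −0.72 from unscaled TPM), and with rescaled TPM 1 was higher. Processed pseudogenes, copies of spliced messages that share reads with their parents, had a median of −1.49 over 116 genes, with 2.59% higher and 73.3% lower.

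Overlapping genes showed where a gene-span count and a transcript-level value part. Snora73a and Snora73b averaged 1052 and 1744 CPM in nucleoplasm, Snhg3 2748 CPM and Rcc1 2768 CPM. Rcc1, the exchange factor for Ran, had 3.85 from counts and −1.12 from rescaled TPM, and Snhg3 4.30 and −0.47. Mrps6 had 2.35 from counts and −1.07 from rescaled TPM, and the transporter gene Slc5a3 (2.94) lies wholly within its span. Strada had 1.78 and −0.69 and overlaps Ccdc47 (2.57) on the same strand over 12.3% of its span. Eif4a2, which holds Snora81, had 1.58 and −0.20. In the other direction Hist2h3c1 had −1.61 and 1.47, Gm38393 −1.07 and 1.55 and Adck2 −0.85 and 0.96. Counts of these genes cannot be assigned to 1 gene, and the count ratios of the mature messages of Rcc1, Mrps6 and Eif4a2 are not known from these values.

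The ratio itself was compared with that of the other cell types, in a test of the difference between log2 ratios over the same 27 libraries. Against mESC, 1836 genes had a larger ratio in mNPC (10.0%) and 2616 a smaller one (14.3%). The split was 657 to 5206 under total-count scaling, 735 to 4264 with unscaled TPM, 2487 to 1944 under median-ratio size factors and 3005 to 2124 with rescaled TPM. Against mCtx, 3631 were larger (19.9%) and 3250 smaller (17.8%), with 4457 to 2394 under total counts and 513 to 9908 with unscaled TPM. Such differences are therefore relative to the scaling, which moved their median by up to 0.45 against mESC and by up to 1.25 against mCtx.

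The secretory lists had larger ratios in mNPC than in mCtx. The difference was called for 36 of 36 secreted, 44 of 48 receptor and transporter, 30 of 30 lysosomal and Golgi and 52 of 52 ER genes, and the mCtx medians were 0.67, 0.73, −0.08 and −0.34. The background of genes higher and lower in nucleoplasm was 30.3% and 27.7% within mCtx and 33.0% and 28.9% within mESC. Ganab differed by 2.57 and Hspa5 by 2.00. Against mESC, whose medians for the first 2 lists were 3.11 and 2.79, 6 secreted genes had a larger and 9 a smaller ratio in mNPC, and 5 and 7 of the receptor and transporter genes. By contrast, 37 of 52 ER and 12 of 30 lysosomal and Golgi genes had a smaller ratio in mNPC, with mESC medians of 2.48 and 2.81. The log2 ratio of Hspa5 differed from that in mESC by −0.87 (edgeR adjusted p = 0.014) and that of Calr by −1.17. Cspg4, which averaged 2.03 and 0.571 CPM in mESC, differed by 3.01.

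Genes of very long proteins differed from mESC in the other direction. Of 345 genes with 2000 codons or more, 165 had a larger ratio in mNPC and 17 a smaller one, against backgrounds of 10.0% and 14.3%, and the medians were 1.21 in mNPC, 0.58 in mESC and 1.72 in mCtx. Prpf8 differed by 2.63 ± 0.26 (edgeR adjusted p = 5.21e-08) and Snrnp200 by 2.31. Among named genes of under 2000 codons, Hk1 differed by 2.44, Sdha by 2.32, Nes by 2.26, Chd4 by 1.86 and Eif4g1 by 1.73. Ribosomal protein genes had smaller ratios than in mESC in 62 of 85 cases and larger ones than in mCtx in 48, with medians of −0.92 in mESC and −2.24 in mCtx. The long adhesion list had a smaller ratio than mCtx in 27 of 45 cases (mCtx median 3.56).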

How the data were processed

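Per the labels' protocols, RNA over 200 nt from each fraction was depleted of ribosomal RNA and made into stranded libraries without oligo-dT selection, read as 100 bp pairs. STAR, featureCounts, kallisto and the mm10 build are named, without versions, in the submitters' processing notes. The authors deposited whole-number counts for 37332 genes. The length they give was the full span in every gene, introns included. The unit of the deposited chromatin columns was recorded here under the heading expected count for a format check, although they too hold whole numbers. The authors' deposited TPM values served as a check. Strand, multi-mapping and overlap settings were not given in the sources used here, so reads of overlapping genes cannot be told apart.

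All 27 libraries (9 groups, 18 residual degrees of freedom) were fitted with edgeR 4.0.16 in R 4.3.3 (filterByExpr, trimmed-mean scaling without chrM, quasi-likelihood test, Benjamini-Hochberg adjustment over 18281 genes, threshold 0.05). Differences between cell types were contrasts of that fit. TPM was tested as log2(TPM + 1) with limma 3.58.1, a form that understates changes of low genes. Each library was first divided by its sum over the tested non-mitochondrial genes (unscaled TPM). For rescaled TPM the median ratio was applied on top. A floor of 3 counts was 0.159 to 0.290 CPM in the 6 libraries and covers counting error only. In simulated counts for the main comparison (17909 genes, 50 changed per fold), 25, 42, 49 and 50 were recovered by edgeR at 1.5-, 2-, 4- and 8-fold, with 6 false calls. False calls were 3.49% of calls with edgeR, 8.11% with DESeq2 and 7.22% with limma. The limma run used simulated counts scaled to CPM, so its value does not cover the check with TPM. In the differences from mESC and from mCtx, edgeR recovered 7 each at 1.5-fold. As many genes were raised as lowered and all others left equal between fractions, so an effect of the scaling could not appear.

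Names and coding sequences came from GENCODE vM21, which matched 35533 genes. Members and gene lists were chosen with earlier results of these data known, and list counts are descriptions. Named genes were, by rule, the 8 coding and 4 other genes with the largest ratio in each direction at 10 CPM or more, 2 per list and direction, a fixed set, the chrM genes, 4 per cell type difference and direction, and 3 per direction called oppositely by counts and TPM. Others were named after their values were seen. Not every gene the rule names is described here. Replicate numbers were not used to pair the samples, and whether same-numbered fractions came from the same culture is not known here. Alternatives were DESeq2 1.42.0, other scalings and filters, TPM, the 6 libraries alone, a replicate block and leaving out each library.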

Additional observations from a re-analysis of the deposited data

Results flagged for a closer look

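The nucleoplasm-to-cytoplasm ratio differed between cell types for many genes in the edgeR test of the difference (adjusted p under 0.05). The numbers were 1836 larger and 2616 smaller in mNPC than in mESC, and 3631 larger and 3250 smaller than in mCtx. The genes below had the largest differences, and a log2 difference that is fitted against a group with no counts is not a bound.

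Larger in mNPC than in mESC were Tnr (6.89), Dsp (4.19), Lgr5 (3.98) and Daam2 (3.77). Lgr5, a receptor of the Wnt pathway, averaged 38.1 and 5.26 CPM in mNPC nucleoplasm and cytoplasm and 0.286 and 0.638 CPM in mESC. Tnr was not detected in mESC nucleoplasm, and Dsp had 0.233 CPM in mNPC nucleoplasm and no count in cytoplasm. Smaller were Slc25a18 (−6.22), Spn (−5.72), Cubn (−5.03) and Lefty1 (−3.90). Cubn, an endocytic receptor, averaged 132 and 3.39 CPM in mESC and 1.20 and 1.01 CPM in mNPC. Slc25a18 was not detected in mESC cytoplasm, and Spn had no count in mNPC nucleoplasm.

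Larger in mNPC than in mCtx were Il31ra (5.65), Gpr37l1 (5.52), Lars2 (4.77) and Pcdh20 (4.51). Lars2, the mitochondrial leucine tRNA ligase, averaged 43.7 and 52.8 CPM in mNPC and 32.8 and 1080 CPM in mCtx, and Il31ra 4.64 and 12.6 CPM against 2.81 and 379 CPM. Smaller were Rtl4 (−8.67), Zfp385b (−5.32), Prkg1 (−4.58) and Hs3st4 (−4.35). Prkg1, a cyclic GMP-dependent kinase, averaged 285 and 12.2 CPM in mCtx and 0.558 and 0.574 CPM in mNPC. Rtl4 had no count in mNPC nucleoplasm, and Zfp385b and Hs3st4 were near or under the floor of 3 counts in both mNPC fractions.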

How the results depend on the processing

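Depth limited genes near the floor of 3 counts, and the scaling limited the differences between cell types. DESeq2 kept the direction and call of each of the 155 named results it could fit, and median-ratio size factors did so for 156. Leaving out 1 library gave 4017 to 4146 higher and 4070 to 4284 lower genes. Against mESC these fits gave 1514 to 1919 larger and 1814 to 2468 smaller ratios, and against mCtx 3267 to 3843 and 2747 to 3182. Of these 6 fits, Rest lost its call in 4, Dsp in 3, and Spn and Hs3st4 in 5 each. A test against a 2-fold threshold left 1925 higher and 434 lower genes. The cause of the changes below was not tested.

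Unscaled TPM gave 1876 higher genes, 2020 with a pseudocount of 0.1. Against mESC, ratios were larger for 657 and smaller for 5206 genes under total counts, 735 and 4264 with TPM, and larger for 3005 with rescaled TPM. Against mCtx TPM gave 513 larger and 9908 smaller. Reversed values, with TPM and then rescaled TPM, were Mrps6 −1.68 and −1.07, Eif4a2 −0.85 and −0.20, Snhg3 −1.02 and −0.47, Cwf19l1 −0.66 and −0.26, Rcc1 −1.65 and −1.12, Strada −1.20 and −0.69, Hist2h3c1 0.99 and 1.47, Gm38393 0.93 and 1.55, Adck2 0.35 and 0.96, Dsp −0.43 and −0.32, Il31ra −0.53 and −0.26, and Pcdh20 −1.10 and −0.38. With TPM but not rescaled TPM Nes (−0.64) and Rest (−0.21) reversed. Ptbp2, which was not called, had −0.93 with TPM. With rescaled TPM but not TPM Hs3st4 (0.33) reversed. As shares of TPM or of all counts, nucleoplasmic values became 4.77% (mitochondrial genome), 0.813% and 15.5% (genes of 100 kb or more), 1.52% and 19.6% (dense coding genes) and cytoplasmic ones 0.660% and 0.873%. From rescaled TPM the class medians moved to −0.37 and 0.32 (spans under 10 kb and of 300 kb or more), −0.47 and 1.02 (densest runs of 8 or fewer and 14 or more) and −0.15 and 1.20 (start windows of 3 or fewer and 9 or more).

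With the replicate number as a block (12 residual degrees of freedom), 4898 genes were higher and 5178 lower, with 2591 larger and 3488 smaller ratios against mESC and 4342 and 3894 against mCtx. Pairing by number was not clear from the data. Deviations of same-numbered libraries correlated at 0.27, −0.07 and 0.03 over 13142 genes. Nucleoplasmic replicates 2 and 3 correlated best with cytoplasmic replicates 3 and 2 (0.19 and 0.17). These values are a hint from the data and do not give the design.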

Other observations

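In the 31 EGF and FGF response regulators, the medians of the log2 ratio were −0.17 in mNPC, −0.17 in mESC and −0.07 in mCtx. The ratio of Egfr lay 0.03 ± 0.40 (SE) above that in mESC, a difference that missed the edgeR threshold, and exceeded that in mCtx by 1.61 (adjusted p = 0.000387).

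The ribonuclease MRP RNA Rmrp and the 7SK RNA Rn7sk, near the middle in mNPC, had larger ratios than in mCtx by 2.64 and 3.06 (edgeR adjusted p = 2.94e-06 and 2.62e-07).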
